A study of Rattus norvegicus with 16 samples.

Results

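Excess vitamin A was compared with a control diet in bone that kept its marrow, on 8 of the 16 arrays of the series, taken by their titles. The shaft of the humerus of male Sprague-Dawley rats aged 8 weeks was freed of periosteum, epiphyses and growth plates, and its RNA was hybridised to Affymetrix rat arrays. The 4 vitamin A arrays (CorticalBone+Marrow_ExcessVitA) came from rats fed 1700 IU of vitamin A per g of pellet, given as retinyl palmitate and retinyl acetate, for 8 days. The 4 control arrays (CorticalBone+Marrow_Control) came from rats on the unsupplemented pellets, with 12 IU per g. The other 8 arrays hold cortical bone from which marrow had been washed out with cold saline, 4 per diet, and serve here as a reference. Each array has a sample code of its own and 12 rats were kept per diet, but the labels do not say that each array is a separate rat, so p-values measure the spread between these samples.

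Vitamin A is converted in tissues to retinoic acid, the ligand of nuclear receptors that switch target genes on or off. An excess of it is known in rodents for thin, fragile long bones. Bone with marrow is a mixed sample in which blood-forming cells, which fill the marrow cavity, stand beside bone cells and vessels, and the study's design text takes it to represent mainly marrow cells because it gave about 4 times as much RNA as cortical bone. In such a sample, fewer cells of a type and less RNA per cell cannot be told apart.

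No gene is named here, and no sequence is shown, because the probe set identifiers of the deposited table do not belong to the values beside them. Identifiers stood in alphabetical order (99.99% of neighbours). The values were sorted by the absolute moderated t of this very comparison, largest first (99.81% of neighbours, Spearman's rho with row number -0.9989). Rows that share a symbol, 9609 pairs, correlated over the 16 arrays with a median of 0.0116. Rows are therefore called by their number in the table, and each row is the same feature in all arrays. A low row number means a large t in this comparison and is no separate evidence. The defining markers of marrow could not be read for the same reason.

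The 8 arrays were alike in their medians but not in their position between the tissues. Their medians lay between 5.988 and 6.01 on the log2 scale, and their interquartile ranges between 3.138 and 3.375. On an axis drawn from the mean of the cortical bone arrays (0) to the mean of the arrays of bone with marrow (1), each array placed without its own values, the vitamin A arrays 1 to 4 stood at 0.80, 0.798, 0.965 and 0.817. Controls 2, 3 and 4 stood at 1.33, 1.20 and 1.17. Control 1 stood at 0.704, below all other arrays of bone with marrow. The labels also contradict each other for this array: its title and source name give bone with marrow, while its tissue field gives cortical bone without mention of marrow. It is kept as titled, and the counts of called rows, of rows without overlap and of spread are given with and without it. Some single rows are given with all 8 arrays only.

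Rises outnumbered falls among the rows that passed the test, by far. With all 8 arrays, 121 of 31099 rows (0.389%) were called by limma at an adjusted p under 0.05. Of these, 119 rose under vitamin A (0.383%) and 2 fell (0.00643%). A change of 2-fold or more was seen in 39 of the called rows (0.125%), each a rise. The groups did not overlap in 114 of the 119 rises and in both falls. Of all 31099 rows, 6.08% had groups without overlap, 2.97% as rises and 3.1% as falls. Called rows were chosen by a large t on these same 8 arrays. Their lack of overlap follows largely from that choice and is no separate evidence for the called rows. The count moved with single arrays of bone with marrow: it was 692 without control 1, 17, 29 and 29 without controls 2, 3 and 4, and 46, 22, 55 and 25 without vitamin A arrays 1, 2, 3 and 4. Rises made up all but 1 or 2 of the called rows each time except without control 1, where 32 fell. With the 2 contradictory arrays, control 1 and a cortical bone control, grouped by their tissue field, limma called 0 rows (788 up and 658 down at an unadjusted p under 0.05). This put control 1 among the cortical bone controls and cortical bone control 1 among the controls of bone with marrow. On the tissue axis cortical bone control 1 stood at -0.036, and cortical bone controls 2, 3 and 4 at 0.347, -0.208 and 0.344. With both contradictory arrays left out, limma called 604 rises and 31 falls. With the position between the tissues as a covariate it called 34 rises and 1 fall.

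The 12 rises with the largest change were taken from called rises whose groups did not overlap. Among them the change ran from 1.26 to 1.88 log2 units and control SDs from 0.22 to 0.78. Without control 1 the change in these 12 ran from 1.21 to 1.94 (limma adjusted p from 1.07e-05 to 0.0131). Row 30 had the largest change with all 8 arrays. Its levels were 7.02, 6.98, 7.0 and 7.51 in controls 1 to 4 and 9.53, 9.12, 8.64 and 8.72 in vitamin A arrays 1 to 4. Every treated array lay above every control by more than 1 log2 unit, and control 4, not control 1, was the highest of its group. Row 30 rose by 1.88 ± 0.30 (SE, limma adjusted p = 0.0113), a 3.67-fold change.

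Rows were also put in 5 classes of equal size by their mean level. Row 24, in the highest class, read 9.38, 8.63, 8.99 and 8.49 in controls and 10.66, 10.65, 9.94 and 11.33 under vitamin A. It rose by 1.77 ± 0.28 (SE, limma adjusted p = 0.00965). The treated arrays were spread more widely (SD 0.57, n = 4) than the controls (SD 0.40, n = 4), and the lowest of them still lay above control 1. Row 1 had the smallest p of all and behaved differently in its spread, with 7.88, 7.30, 7.44 and 7.27 in controls against 8.74, 8.78, 8.89 and 8.76. Its treated arrays lay close together (SD 0.07, n = 4), and the rise was 1.32 ± 0.13 (SE, limma adjusted p = 0.00058).

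The rest of the 12 include rows 4, 5, 19, 28, 41 and 75, which rose by 1.28, 1.31, 1.32, 1.66, 1.33 and 1.35. Lack of overlap was a condition for the choice of the 12. In 5 of these 6, row 75 being the exception, control 1 was the highest control. Of the 12, 2 lay in the lower 2 of the 5 level classes. Row 3, in class 2, read 4.49, 3.94, 3.99 and 3.68 in controls and 5.77, 5.24, 5.87 and 5.57 under vitamin A, a rise of 1.59 ± 0.20 (SE, limma adjusted p = 0.00338). Row 50, in the same class, read 4.33, 4.78, 4.52 and 4.32 against 5.43, 5.61, 6.21 and 5.73 (1.26 ± 0.22, SE, limma adjusted p = 0.0213). Row 50 is one of the 3 of these 12 in which control 1 was not the highest control. Class 1 held 2 called rises. Row 68, singled out after its values were seen, rose by 0.94 (limma adjusted p = 0.0255), but its groups overlapped, with controls up to 3.98 and treated arrays from 3.94. The other, row 140, had groups that did not overlap and read 3.63, 3.49, 3.43 and 3.48 against 3.82, 3.93, 4.03 and 4.04. It rose by 0.45 ± 0.09 (SE, limma adjusted p = 0.0465), near the bottom of the range of levels (percentile 9.22 of rows), and lost its call in 17 of 26 alternatives (limma adjusted p from 0.00255 to 0.962).

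The 2 falls differed in size and in how well they held. Row 11 read 7.21, 7.01, 7.06 and 6.75 in controls and 6.06, 6.07, 5.97 and 6.14 under vitamin A. It fell by 0.95 ± 0.14 (SE, limma adjusted p = 0.00725), with treated arrays close together (SD 0.07, n = 4), and lost its call in 1 of 27 alternatives. Row 90 read 4.93, 4.97, 5.0 and 4.99 against 4.56, 4.62, 4.56 and 4.65, a fall of 0.38 ± 0.08 (SE, limma adjusted p = 0.0407). Its control SD of 0.03 and treated SD of 0.04 were small beside the median of 0.145 and 0.139 over all rows, and it lost its call in 16 of 26 alternatives (limma adjusted p from 0.00405 to 0.962).

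**Figure D1:**
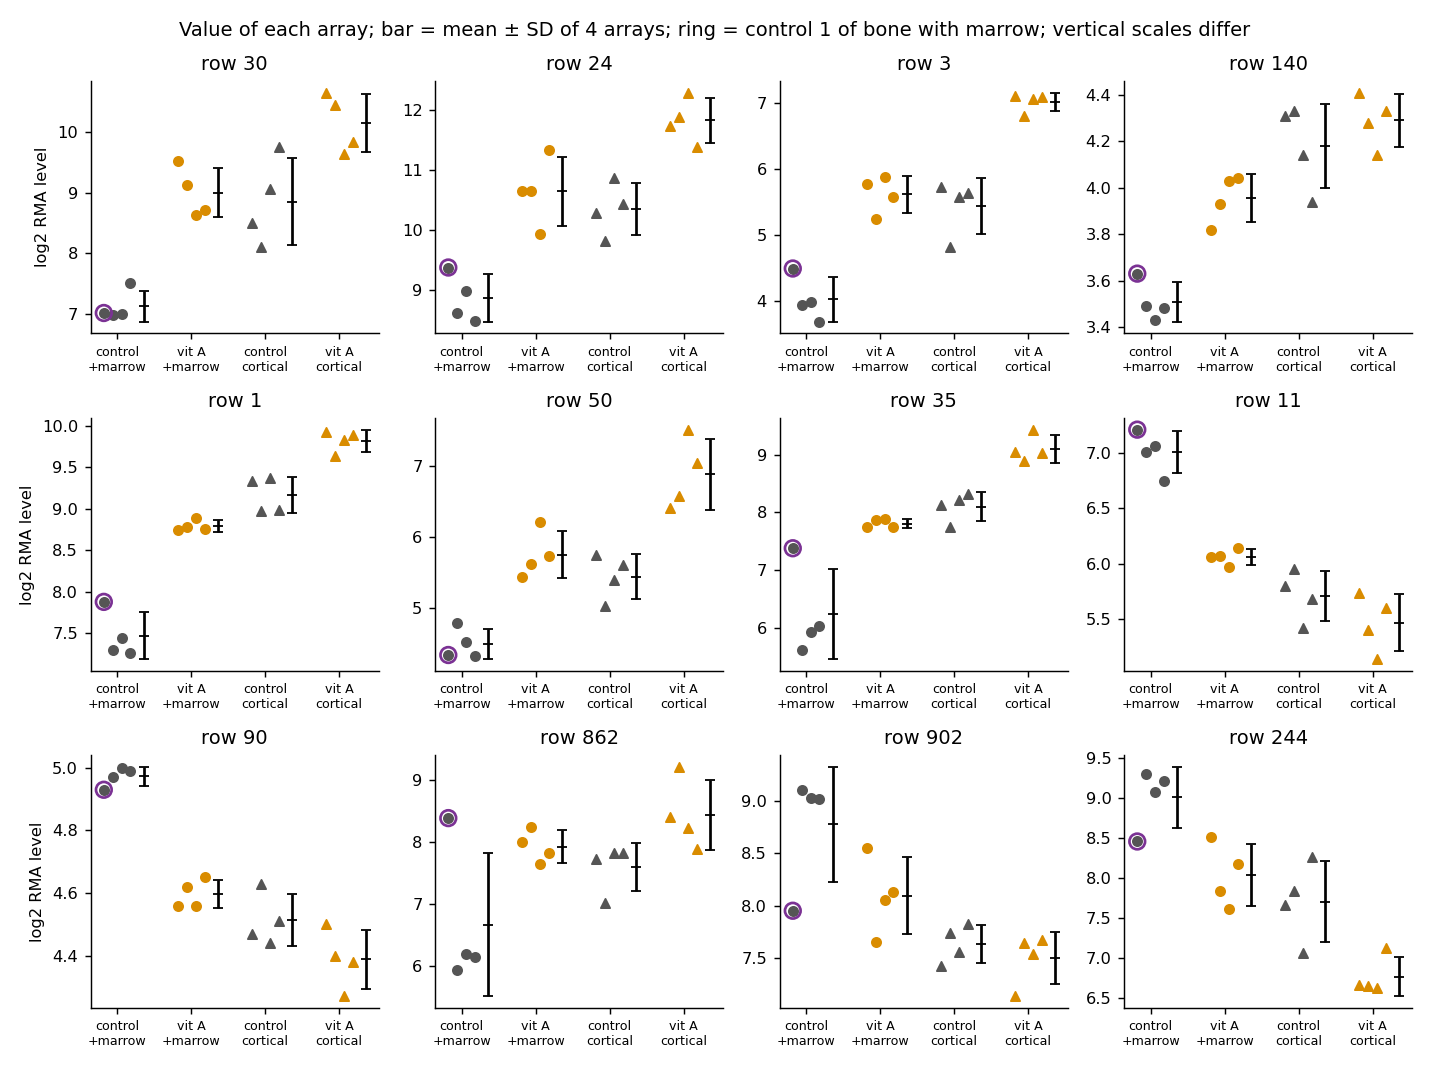
Log2 RMA level of each array (vertical axis) in 12 rows, for bone with marrow (circles) and cortical bone (triangles), control grey and vitamin A orange, with mean ± SD of 4 arrays beside each group and control 1 of bone with marrow ringed. In row 30 control 1 sits with its group at 7.02, in row 862 it sits at 8.39, above the treated arrays (7.64 to 8.25), and in rows 11 and 90 the groups of bone with marrow do not overlap.

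Left out of the fit, control 1 changed the number of called rows more than any other array. Without it, limma called 692 rows (2.23%), of which 660 rose (2.12%) and 32 fell (0.103%), and 160 changed by at least 2-fold (0.514%), 156 of them up and 4 down. All 121 rows called with all 8 arrays were among them, in the same direction, and 571 were gained, 541 rises and 30 falls. The gained rises were smaller, with a median of 0.735 log2 units against 1.1 for the 119 rises in the fit without control 1. In the fit with all 8 arrays it was 0.545 against 0.924. The gained rows are those that had not passed with all 8 arrays, so smaller changes follow in part from that choice. The gained falls had a median size of 0.535 without control 1. Array weights in place of leaving it out gave 852 called rows, 711 up and 141 down.

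**Figure D2:**
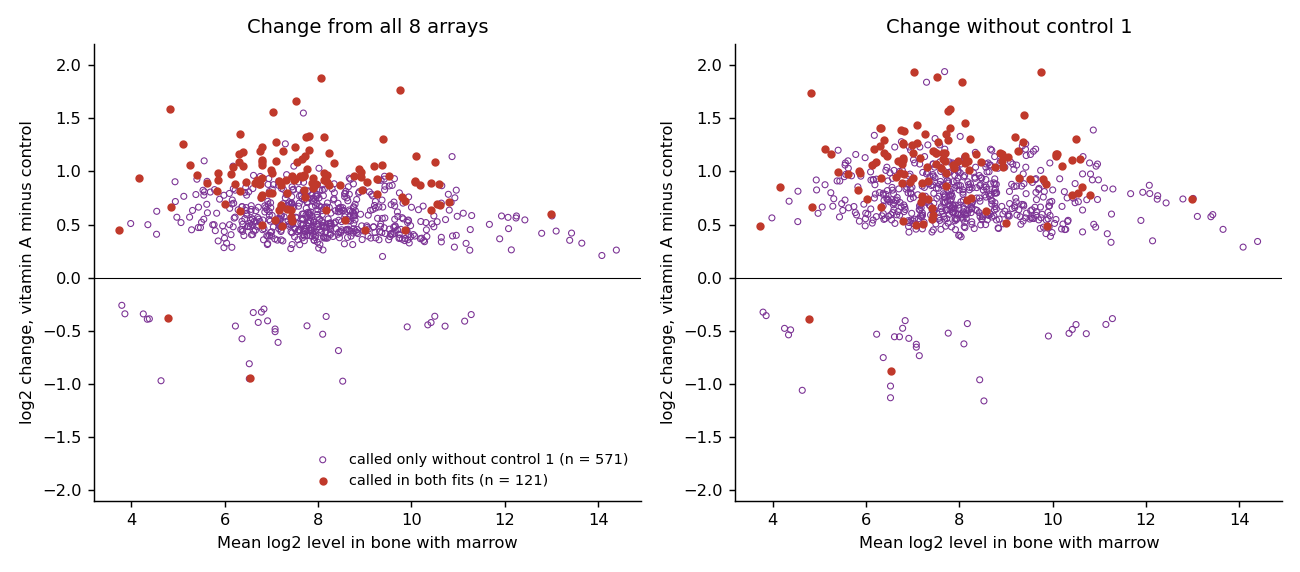
Log2 change under vitamin A (vertical axis) against mean log2 level in bone with marrow (horizontal axis) for the 692 rows called with or without control 1, with the change from all 8 arrays on the left and without control 1 on the right. The 121 rows called in both fits (filled) and the 571 called only without control 1 (open) lie mostly above 0 and above a level of 6, and the 32 falls, of 0.324 to 1.16 in size, lie below 0 on the right.

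Rows gained this way are by their choice rows in which control 1 mattered, so its values in them are a description. Row 862 read 8.39 in control 1 but 5.93, 6.20 and 6.14 in controls 2 to 4, and 8.01, 8.25, 7.64 and 7.82 under vitamin A. Control 1 was higher than every treated array. The row rose by 1.84 ± 0.26 without control 1 (SE, limma adjusted p = 0.000674) and by 1.26 ± 0.42 with it (limma adjusted p = 0.287).

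Row 401 read 8.08 in control 1 and 5.91, 7.38 and 6.27 in the other controls, with 8.13, 8.44, 7.92 and 9.35 under vitamin A. Its change was 1.94 ± 0.38 without control 1 (SE, limma adjusted p = 0.0106) and 1.55 ± 0.42 with it (limma adjusted p = 0.156). Row 210, at percentile 98.1 of levels, read 11.04 in control 1 and 9.86, 10.29 and 10.03 in controls 2 to 4, just below the lowest treated array at 11.07. Row 35, called in both fits, read 7.38 in control 1 against 5.62, 5.93 and 6.04, with 7.74, 7.86, 7.89 and 7.74 under vitamin A. Its change went from 1.56 ± 0.26 (SE, limma adjusted p = 0.0165) to 1.94 ± 0.15 (limma adjusted p = 1.07e-05) without control 1. In row 35 the groups stayed apart, but control 1 lay nearer to the treated arrays than to the other controls.

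Falls were gained too. Row 902 read 7.95 in control 1 and 9.11, 9.03 and 9.02 in controls 2 to 4, with 8.55, 7.65, 8.05 and 8.13 under vitamin A. Controls 2 to 4 lay close together (SD 0.05, n = 3) and control 1 within the treated range. The fall was 0.96 ± 0.18 without control 1 (SE, limma adjusted p = 0.00616), against a change of -0.69 ± 0.23 with it (limma adjusted p = 0.303). Row 244 read 8.46 in control 1, 9.30, 9.08 and 9.22 in the others, and 8.52, 7.84, 7.62 and 8.18 under vitamin A, a fall of 1.16 ± 0.24 without control 1 (SE, limma adjusted p = 0.0144). Row 199 fell by 1.02 ± 0.17 (SE, limma adjusted p = 0.00281), with control 1 at 6.31, the other controls at 7.40, 7.25 and 6.76, and treated arrays at 5.90 to 6.42. Of the 12 rows named for the fit without control 1, 6 up and 6 down, control 1 overlapped the treated arrays in 6, rows 199, 244, 401, 816, 862 and 902. Of the 12, rows 14, 27 and 61, called in both fits and without overlap, rose by 1.39, 1.41 and 1.41 without control 1 and had control 1 at a place of 0.58, 0.6 and 0.71, where 0 is the mean of the other controls and 1 that of the treated arrays. Rows 220, 324 and 816 fell by 1.06, 1.13 and 0.75 without control 1 and had it at 0.36, 0.64 and 0.94. With the position between the tissues as a covariate, 9 of the 12 lost their call, all but rows 14, 27 and 61. The 6 falls then had limma adjusted p-values from 0.0866 (row 199) to 0.545 (row 324), with 0.265 for row 902 and 0.46 for row 244, and rows 862, 210 and 401 had 0.0752, 0.148 and 0.396.

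An array left out of the fit took no part in choosing the rows called without it, so its place in them can be read as a measurement. Place is given on a scale from 0, the mean of the controls in the fit, to 1, the mean of the vitamin A arrays in the fit. In the 660 rises called without control 1, control 1 had a median place of 0.917 (quartiles 0.705 and 1.13). It was nearer the treated mean in 581 of them (88.0%), at or above the lowest treated array in 422, within the range of the other controls or below in 29, and between the groups in 209. Its place was higher at higher levels: over the 5 level classes, which held 3, 15, 98, 265 and 279 of the 660 rises, the median place was 0.329, 0.527, 0.828, 0.9 and 0.98. In the 32 falls its median place was 0.66, and it was nearer the treated mean in 26. The other controls did not do this. In the 16, 28 and 28 rises called without controls 2, 3 and 4, the left-out control had a median place of -0.149, 0.0767 and -0.242, and it was nearer the treated mean in 0, 0 and 1 of them. Vitamin A arrays 1 to 4, left out in turn, had median places of 0.888, 1.03, 0.85 and 0.99 in 44, 21, 53 and 24 rises, and were nearer the treated mean in 43, 20, 52 and 24. Lists made without another control hold control 1 among their controls, so the lists differ in what they could call.

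On the same scale, every cortical bone array had a median place beyond those of the treated arrays of bone with marrow in the 660 rises. Cortical bone controls 1 to 4 had median places of 1.84, 1.53, 2.01 and 1.78, and cortical bone under vitamin A 2.09, 2.08, 2.28 and 1.99. In the 32 falls these were 1.34 to 1.70 and 1.88 to 1.95. Of the 119 rises called with all 8 arrays, 116 stood below cortical bone in bone with marrow over both diets, and of the 660 called without control 1, 656 were, where 16054 of all 31099 rows were. In the 10% of rows that stood lowest in bone with marrow relative to cortical bone (differences of -1.83 to -0.439) lay 114 of the 119 rises and 641 of the 660. Of the 32 falls, 22 lay in the 10% at the opposite end. The tissue difference shares its marrow arrays with the comparison. The part that the share of marrow in each sample had in these rises was not tested.

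**Figure D3:**
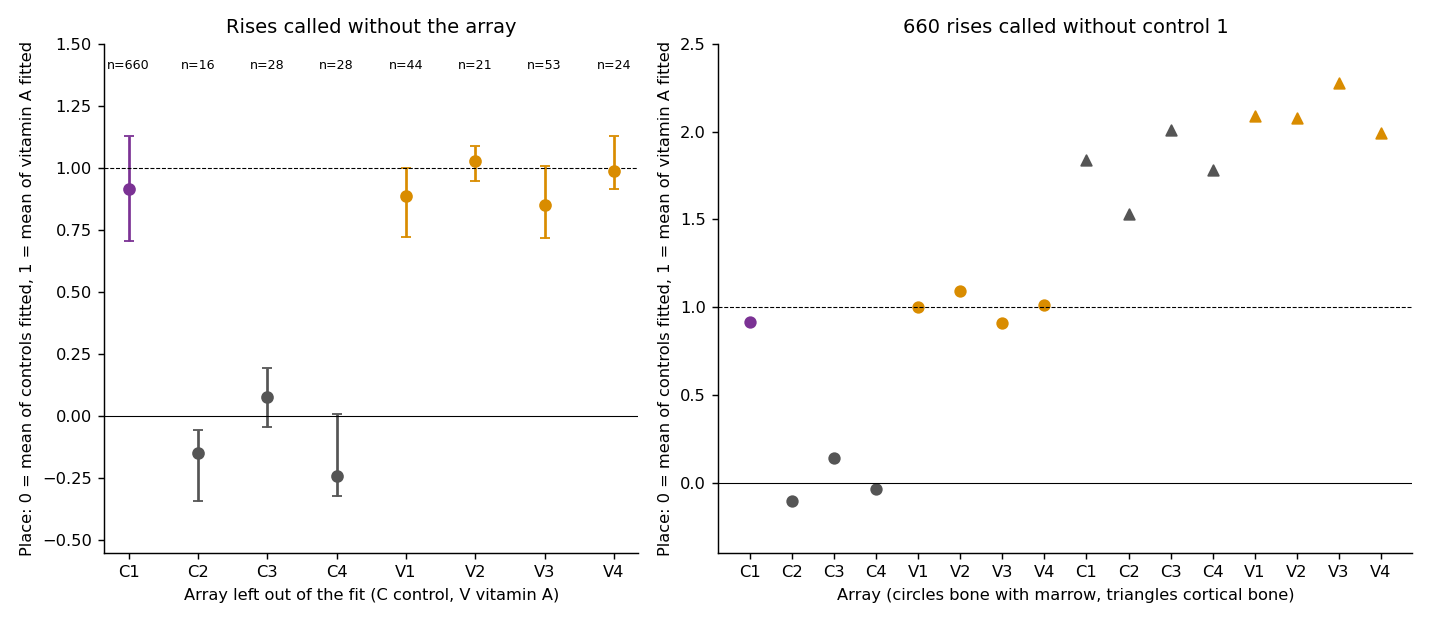
Place of arrays between the mean of the controls fitted (0) and the mean of the vitamin A arrays fitted (1), vertical axis. The left panel gives the median and quartiles for each array of bone with marrow over the rises called without it (number above each), and the right panel the median of each of the 16 arrays over the 660 rises called without control 1. Control 1 (purple) sits at 0.917, with the treated arrays at 0.907 to 1.09 and the other controls at -0.106 to 0.143 in the right panel. These treated arrays and other controls entered the choice of the rows and set 0 and 1, so their places near 0 and 1 follow from that. Control 1 did not.

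Called rises lay in the upper range of expression. Rows were put in 10 classes of equal size by their mean log2 level over the 8 arrays, giving each diet equal weight. With all 8 arrays, the classes held 1, 1, 0, 4, 5, 13, 29, 26, 18 and 22 called rises from the lowest to the highest, and the 2 falls lay in classes 3 and 6. In the 5 upper classes, above a level of 6.008, lay 108 of the 119 rises (90.8%). Without control 1, those classes held 610 of the 660 rises (92.4%) and 25 of the 32 falls. With arrays quantile normalized, 59 of 71 rises lay there (83.1%), and 513 of 562 (91.3%) without control 1. So the rises stood high in the range of levels under both scalings and with or without control 1. The median level of the 119 rises was 7.51, of the 660 it was 7.87, and of all rows 6.01.

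Counted by whether the groups overlapped, falls were as many as rises. With all 8 arrays the groups did not overlap in 1890 rows (6.08%), of which 925 were higher under vitamin A (2.97%) and 965 lower (3.1%). Of the 925, 114 were called, and of the 965, 2 were. The lower rows had changed less, with a median size of 0.231 log2 units against 0.37. Over all rows, whatever their p, 61 were higher by at least 2-fold and 6 lower. At an unadjusted p under 0.05 stood 2878 rows (9.25%), 1691 up (5.44%) and 1187 down (3.82%).

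In these weaker differences, rises and falls split by level in the deposited values. In the 5 lower classes, rows without overlap were 236 up and 584 down (28.8% up), and in the 5 upper classes 689 up and 381 down (64.4% up). Falls were most frequent against rises in class 2, levels 3.77 to 4.259, with 22 up and 127 down, and rises in class 8, levels 7.392 to 8.118, with 151 up and 57 down. The median change moved in the same way, from -0.0609 in class 3 to 0.0249 in class 8, and was -0.0284 over all rows. Without control 1, 4962 rows did not overlap (16%), 2452 up (7.88%) and 2510 down (8.07%). Groups of 3 and 4 arrays part more easily by chance than groups of 4 and 4, with 35 possible assignments in place of 70. The count is therefore not like for like with that from all 8 arrays. At an unadjusted p under 0.05, 2160 rows were up and 1507 down without control 1 (6.95% and 4.85%). The shares up were then 36.2% in the lower and 55.5% in the upper classes, and in the highest class 376 rows were up and 514 down.

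This split depended on the scaling of the arrays. After quantile normalization it was 346 up and 366 down in the 5 lower classes (48.6% up) and 472 up and 747 down in the 5 upper classes (38.7% up), so that the upper range changed from mostly up to mostly down. Median centring gave 22.1% and 59.6% up. The deposited arrays differed slightly in shape. The lower quartile was 4.532 ± 0.024 (SD, n = 4) in controls and 4.485 ± 0.038 under vitamin A (difference -0.0475, exact two-sided permutation p = 0.114). The upper quartile was 7.725 ± 0.027 and 7.773 ± 0.030 (difference 0.0478, exact permutation p = 0.0571). The interquartile range was 3.193 ± 0.050 and 3.288 ± 0.068 (exact permutation p = 0.0857). None of the 6 measures of shape passed after adjustment (lowest adjusted exact permutation p = 0.171), where the smallest p that 4 against 4 arrays allow is 0.0286. A single measure at that smallest p could not pass on its own after adjustment over 6. The adjusted test therefore cannot decide whether the shapes differ. Without control 1 the exact permutation p was 0.229 for the lower quartile, 0.114 for the upper and 0.171 for the interquartile range. The lowest adjusted exact permutation p of the 6 was then 0.342. After quantile normalization limma called 71 rises and 1 fall.

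**Figure D4:**
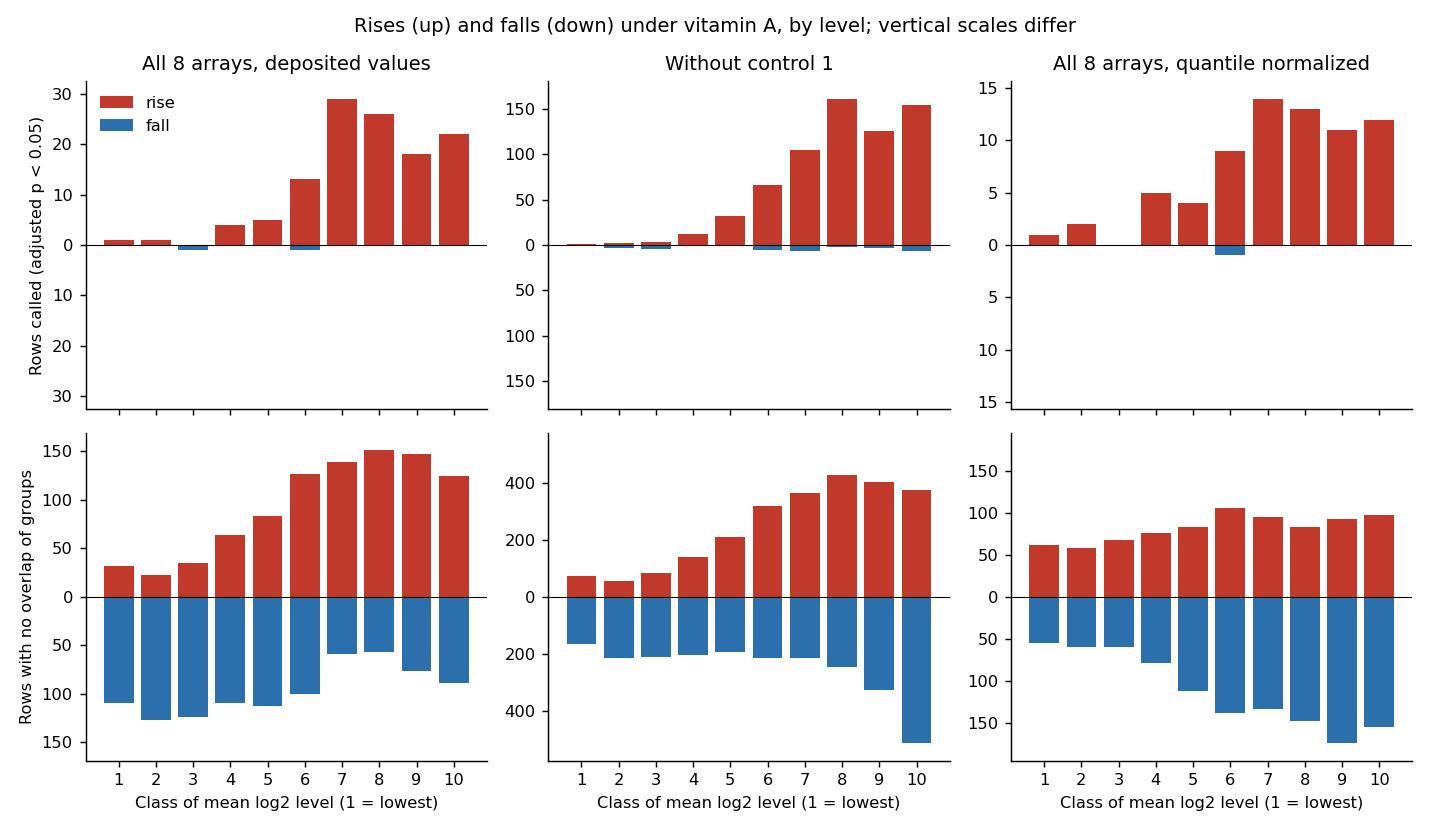
Number of rows that were higher (up, red) or lower (down, blue) under vitamin A in each of 10 classes of mean log2 level (horizontal axis), for called rows (top) and rows whose groups did not overlap (bottom), with all 8 arrays, without control 1 and with all 8 arrays quantile normalized. Called rises lie in the upper classes in all panels of the top line, while the rows without overlap lean down at low levels with deposited values (22 up and 127 down in class 2) and not after quantile normalization (58 up and 60 down).

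Spread within the groups was alike between diets over all rows, and this too turned on control 1. The median SD was 0.145 log2 units in the 4 controls and 0.139 in the 4 vitamin A arrays, and the SD was higher under vitamin A in 48.8% of rows. Without control 1 the median control SD was 0.121, and the SD was higher under vitamin A in 59.2% of rows. That share sets an SD of 3 arrays against an SD of 4. An SD of fewer arrays tends to be lower, so part of the shift comes from the number of arrays. Leaving out control 2, 3 or 4 gave 0.145, 0.145 and 0.131, and leaving out a vitamin A array 0.129 to 0.133. Control 1 also lay farthest from the mean of the rest of its group, by a median of 0.153 over rows, against 0.11 to 0.133 for the other 7 arrays. It was the highest of the 4 controls in 29.9% of rows and the lowest in 31.2%.

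Spread depended on level, and control 1 moved the control SD most at the highest levels. With 4 controls, the median control SD was 0.107 in the lowest of the 10 level classes, 0.168 in class 6 and 0.141 in the highest. Under vitamin A it was 0.102, 0.163 and 0.136 in the same classes. Without control 1 the control SD in the highest class was 0.0972, and the vitamin A SD was the higher one in 70.6% of those rows, against 53.3% in the lowest class.

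**Figure D5:**
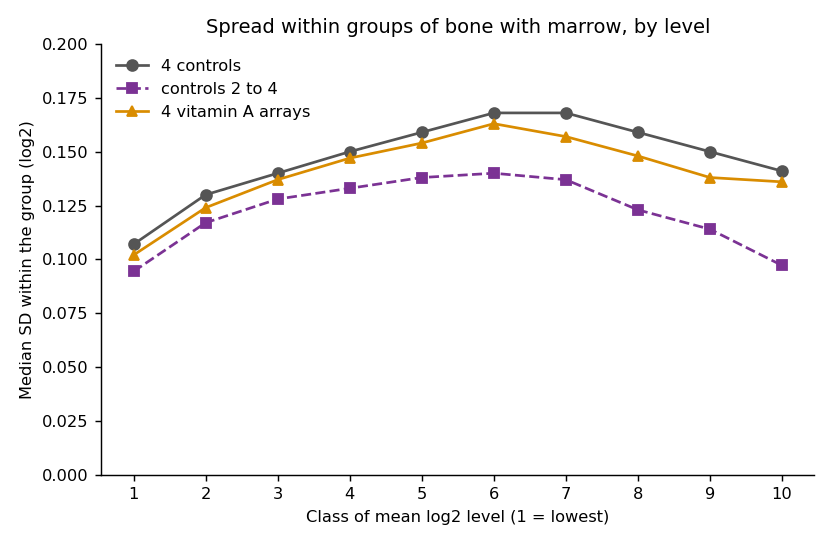
Median SD within the group over rows (vertical axis, log2 units) in each of 10 classes of mean log2 level (horizontal axis), for the 4 controls, for controls 2 to 4 and for the 4 vitamin A arrays of bone with marrow. The lines of the 4 controls and of vitamin A lie close together, and that of controls 2 to 4 falls away from them to 0.0972 in the highest class.

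Rises were spread widely among the controls, while the spread of their treated arrays was near that of all rows. In the 119 called rises the median SD was 0.342 in the 4 controls, 0.187 in controls 2 to 4 and 0.146 under vitamin A. Over all rows these medians were 0.145, 0.121 and 0.139. The SD was higher under vitamin A in 21 of the 119. Control 1 was the highest control in 98 of them, and controls 2, 3 and 4 in 4, 14 and 3. In 5 classes of equal size by the SD within both groups, the called rises numbered 5, 4, 6, 19 and 85 from the lowest to the highest, and rows without overlap went from 298 up and 544 down in the lowest class to 204 up and 20 down in the highest. The SD enters the test, so these counts are a description.

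Without control 1 the rises were less concentrated in the highest class. They were then more in number and were classed by an SD that left control 1 out, and the 119 rises are not given apart in those classes. The 660 rises numbered 92, 105, 132, 182 and 149 by class of SD, and the 32 falls 7, 5, 6, 5 and 9. Their median SD was 0.16 in controls 2 to 4 and 0.141 under vitamin A, and for the falls 0.132 and 0.148. With rows ordered instead by their SD in cortical bone, whose arrays do not enter the change but do enter the pooled spread of the test, the 119 rises numbered 12, 32, 30, 24 and 21. In that order rows without overlap went from 147 up and 241 down in the lowest class to 205 up and 121 down in the highest.

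Rows that rose in bone with marrow tended to stand higher under vitamin A in cortical bone too. Of the 119 rises, 111 had a positive change in cortical bone (93.3%, against 55.7% of all rows), with a median of 0.467 log2 units there against 0.924 in bone with marrow. In cortical bone 13 of them passed at an adjusted p under 0.05 (0.212% of all rows passed there, 0.132% as rises), and 84 were up and 1 down at an unadjusted p under 0.05 (4.72% and 3.46% of all rows). The tissues share no array, but one pooled spread enters all these tests. Row 3 rose by 1.58 in cortical bone (limma adjusted p = 0.00198) and row 50 by 1.45 (limma adjusted p = 0.00789). Row 24 rose there by 1.48 (limma adjusted p = 0.0327). Row 30 stood at 8.86 ± 0.71 (SD, n = 4) and 10.14 ± 0.48 in cortical bone (change 1.29, limma adjusted p = 0.125). The falls, rows 11 and 90, had changes of -0.24 and -0.13 there (limma adjusted p = 0.692 and 0.699).

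Without control 1, 595 of the 660 rises were up in cortical bone (90.2%, against 55.7% of all rows). Their median change was 0.254 there against 0.788 in bone with marrow. In cortical bone 32 of them passed (0.273% of all rows passed in that fit). At an unadjusted p under 0.05, 316 were up and 6 down (5.16% and 3.62% of all rows). Of the 32 falls, 28 were down in cortical bone, where 55.7% of all rows were up. At an unadjusted p under 0.05, 13 of the falls were down there (3.62% of all rows), and 0 passed after adjustment. Row 210, which rose by 1.39 in bone with marrow without control 1, changed by 0.03 in cortical bone.

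Whether the effect in bone with marrow differed from that in cortical bone was tested in the same limma fit. The difference passed in 0 of the 121 called rows (lowest limma adjusted p = 0.201), with 54 of the 119 rises and both falls at an unadjusted p under 0.05 (3.99% of all rows). Without control 1 it passed in 0 of the 692 (lowest limma adjusted p = 0.0609), with 457 of the 660 rises and 15 of the 32 falls at an unadjusted p under 0.05 (5.33% of all rows). Rows chosen for a large change in bone with marrow have a larger difference for that reason alone. Over all rows the difference passed in 1 row (0.00322%), row 25286, which stood at 3.62 ± 0.15 and 3.66 ± 0.12 in bone with marrow (SD, n = 4) and did not change there. No row was therefore found whose rise or fall was particular to bone with marrow.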

How the data were processed

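The authors deposited log2 expression values per probe set made with RMA, which corrects background, normalizes arrays and summarises probes, per the submitters' processing notes, with version and software not given in the sources used here. All 31099 rows were tested with limma 3.58.1 in R 4.3.3 (lmFit on 16 arrays with 4 group means, eBayes with trend, 12 residual degrees of freedom, two-sided), with Benjamini-Hochberg adjustment over all rows. The fit was repeated without control 1 of bone with marrow. For arrays, their number limits the precision, and no pair of arrays correlated above 0.9941. Array measures were tested by exact permutation over the 70 assignments of diet (35 without control 1), adjusted over 6 measures. Classes of level and spread, overlaps and places were computed with numpy 2.4.6 and described without a test.

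Named rows were, by rule, every called fall, the 12 largest called rises without overlap, the 6 largest further rises and falls without control 1, and the largest called change without overlap in each of 5 level classes. The rule, the lists and the comparison were chosen with earlier results of these data known. Marker lists served only to check identifiers: rows listed under erythroid, granulocyte, B lineage, osteoblast and osteocyte, and osteoclast symbols (5, 3, 1, 12 and 6 rows) had median tissue differences, marrow minus cortical, of -0.31, -0.15, 0.12, -0.12 and 0.08 log2 units. The fits and the place scale were tested on simulated data. Other settings tried were array weights, eBayes without trend or robust, quantile normalized or median centred arrays, no rows below percentile 30 of level, thresholds of 0.01 and 0.1, a fit to bone with marrow alone, the 2 contradictory arrays dropped or moved to the tissue of their tissue field, replicate number as a block, tissue position as a covariate, and each array left out.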

Additional observations from a re-analysis of the deposited data

Results flagged for a closer look

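An array stood far from its group in 6 of 70 groups of 4 arrays. Chance alone flags about 1 in 20 groups, but many of these groups are rows named for their change, some of them without control 1, so that share is no measure for them. Control 1 was the array apart among the controls of bone with marrow in 4 of them. It was the highest in row 4 (gap to the next array over the range 0.835), row 14 (0.843) and row 862 (0.891), and the lowest in row 902 (0.926). In row 30 control 4 was the highest (0.94). On the tissue axis, vitamin A array 3 stood above the other treated arrays (0.886). In row 25286 the limma test of bone with marrow against cortical bone found unequal effects (1.47 ± 0.20, SE, limma adjusted p = 0.0385, and 0.0456 without control 1). Cortical bone controls of that row stood at 5.36 ± 0.36 and treated arrays at 3.93 ± 0.15 (SD, n = 4), and it lay at percentile 7.5 of levels in bone with marrow.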

How the results depend on the processing

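With all 8 arrays, 121 rows were called. The count was 72 after quantile normalization, 852 with array weights, 42 with only arrays of bone with marrow, 0 when the tissue field decided the group of the 2 contradictory arrays, 635 with both dropped, 35 with the tissue position as a covariate, and 22 and 185 at adjusted p under 0.01 and 0.1. Leaving out 1 array gave 17 to 692. Without control 1 the 692 became 1713 with array weights (1243 up, 470 down), 1148 with only arrays of bone with marrow (908 up, 240 down), 129 with the tissue position as a covariate (129 up and 0 down by limma, 1122 down at an unadjusted p under 0.05), and 364 at 0.01. The difference between the tissues, 1 row, became 0 without low rows, without trend, by tissue field, with a replicate block and at 0.01, 3 with array weights, 2 at 0.1, and 0 to 3 without single arrays. The cause of these moves was not tested.

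Rises as a share of rows without overlap were 22.5% in the lowest of 10 level classes and 58.4% in the highest. These became 30.5% and 42.2% without control 1, 52.6% and 38.5% after quantile normalization, 14.3% in the lowest after median centring, and 75.7% in the highest by the level in cortical bone. For these shares both normalizations were added after seeing the data. The highest of 5 SD classes held 71.4% of the 119 rises, 17.6% of them by the SD in cortical bone, and 22.6% of the 660 rises without control 1. The median SD ratio, vitamin A over control, was 0.979, and 0.9 to 1.19 without single arrays. The difference in percentile 95 of the arrays, -0.00125, lay between -0.0157 and 0.0133. With the replicate number as a block, 172 rows were called (967 without control 1). The deviations of same-numbered arrays from their group means correlated over rows at 0.00753, 0.0414, 0.173 and 0.377. Controls 3 and 4 correlated best in this way with the vitamin A array of their own number. Controls 1 and 2 correlated better with a vitamin A array of another number (0.169 and 0.15). The numbers were not taken as pairs in the main fit. Of 15 rows named with all arrays, 15 lost their call by tissue field, 10 without control 2 and 8 with the tissue position, and none changed sign in the alternatives run.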
